A study of Mus musculus with 16 samples.

Results

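The 35 genes described here encode enzymes and regulators of lipid synthesis, and were measured by RNA-seq in inflamed mouse ear skin. They were chosen by symbol from a list with 2 arms, 21 genes of cholesterol (sterol) synthesis and 14 genes of fatty acid and triglyceride synthesis. All 35 were among the 19439 genes that the deposited files list. All 16 mice were BALB/c, 8 weeks old, and received imiquimod (IMQ), a Toll-like receptor agonist whose application gives psoriasis-like inflammation. During the IMQ course the ear was injected intradermally once daily, for 6 consecutive days by design, with 10 µl of lysophosphatidylcholine (LPC, 10 mM), a membrane-derived phospholipid with a single acyl chain, or with 10 µl of normal saline (vehicle). Mice of either treatment were killed on day 4 or day 7, which gave 4 groups of 4 mice, named here by treatment and day (for example, LPC day 7). Skin without IMQ is not part of these comparisons, so every value refers to IMQ-treated skin, and a mouse killed on day 4 had not had the whole course of injections.

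Cholesterol is built from acetyl-CoA through mevalonate, isoprenoid units and squalene, and then through a series of ring modifications that start at lanosterol. Fatty acids are built from the same acetyl-CoA through malonyl-CoA, and are elongated, desaturated and joined to glycerol to form phospholipid and triglyceride. Both pathways are controlled at the level of transcription by membrane-bound factors that are cut to their active form when sterols are low: SREBP-2, made from Srebf2, acts mainly on sterol genes, and SREBP-1, made from Srebf1, mainly on fatty acid genes. INSIG proteins hold these factors in the endoplasmic reticulum when sterols are plentiful. In skin, keratinocytes use both pathways to supply the lipids of the epidermal barrier, and sebaceous glands and dermal fat are further sites of lipid synthesis.

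Promoter sequences are shown for 4 members to which the comparisons return: the sterol gene with the only match to the core of the sterol regulatory element, the sterol gene with the smallest p-value for LPC at day 7, fatty acid synthase, and the only member called in a comparison. RefSeq windows (GRCm38.p6) from 250 bases before to 50 bases after the annotated start were matched for 28 of the 35 members, 17 sterol and 11 fatty acid genes. The windows are chr13:119690101-119690400 (+ strand) for Hmgcs1, chr5:114444019-114444318 (+) for Mvk, chr11:120824498-120824797 (- strand) for Fasn and chr2:26604368-26604667 (-) for Agpat2, each printed 5′ to 3′ along the gene, with matches to TCACNCCAC or CCAAT on either strand in capitals.
Hmgcs1: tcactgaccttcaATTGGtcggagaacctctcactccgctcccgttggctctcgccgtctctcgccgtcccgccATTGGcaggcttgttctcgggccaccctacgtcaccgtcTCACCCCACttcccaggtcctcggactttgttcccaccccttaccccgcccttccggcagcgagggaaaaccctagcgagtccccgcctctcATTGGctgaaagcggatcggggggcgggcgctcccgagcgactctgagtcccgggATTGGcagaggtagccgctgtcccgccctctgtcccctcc
Mvk: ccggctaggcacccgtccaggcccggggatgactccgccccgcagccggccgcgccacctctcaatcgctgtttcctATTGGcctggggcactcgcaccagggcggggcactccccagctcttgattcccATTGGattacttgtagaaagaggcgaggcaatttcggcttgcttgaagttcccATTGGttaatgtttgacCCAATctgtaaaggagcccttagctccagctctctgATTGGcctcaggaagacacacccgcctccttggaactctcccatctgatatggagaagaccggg
Fasn: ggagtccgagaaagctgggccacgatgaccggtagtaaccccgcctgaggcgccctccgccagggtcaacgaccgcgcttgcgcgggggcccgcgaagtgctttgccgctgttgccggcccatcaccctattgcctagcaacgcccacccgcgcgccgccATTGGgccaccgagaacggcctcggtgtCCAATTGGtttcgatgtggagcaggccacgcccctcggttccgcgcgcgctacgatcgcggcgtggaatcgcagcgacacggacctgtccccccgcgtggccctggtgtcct
Agpat2: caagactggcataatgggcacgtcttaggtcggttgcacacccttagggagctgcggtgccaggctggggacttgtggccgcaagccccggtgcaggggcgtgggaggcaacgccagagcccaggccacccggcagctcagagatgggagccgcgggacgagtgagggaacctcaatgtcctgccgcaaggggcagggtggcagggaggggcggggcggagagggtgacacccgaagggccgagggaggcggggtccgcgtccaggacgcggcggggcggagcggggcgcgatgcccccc

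The Hmgcs1 window holds 1 match to TCACNCCAC, the core of the sterol regulatory element that SREBP factors bind, and 4 matches to CCAAT, the letters bound by NF-Y. The Mvk window holds 5 CCAAT matches and the Fasn window 3, of which 1 pair overlaps by 2 bases. The Agpat2 window holds neither motif, and the 2 motifs overlapped nowhere in these windows. CCAAT was found in the windows of 16 of 17 sterol genes (94.1%) and 8 of 11 fatty acid genes (72.7%), against 41.1% of all 27025 genes with a window and 42.3% of the 12411 of them that were tested. TCACNCCAC was found for 1 of 17 sterol and 0 of 11 fatty acid genes, against 1.44% of all genes with a window and 1.42% of those tested. The palindromic E-box CACGTG was found for 4 of 17 (23.5%) and 1 of 11 (9.09%), against 8.09% of all and 10.9% of those tested. These matches describe letters only.

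The files give RSEM expected counts and FPKM (fragments scaled to transcript length and library size), with 18704197 to 20131513 expected counts per library. A count of 0 allows up to 3 counts, or 0.149 to 0.16 CPM (counts scaled to library size). This limit uses the plain library totals, whereas the other CPM values use totals adjusted between libraries, as described under processing. The lowest CPM of any member in any library was 1.71, so no member was near that limit. Several libraries stood apart and are given before the results. Vehicle day 4 mouse 3 was the highest of its group in 21 of 21 sterol and 10 of 14 fatty acid members. LPC day 7 mouse 4 was the highest of its group in 13 of 14 fatty acid members and the lowest in 12 of 21 sterol members. LPC day 4 mouse 3 was the highest of its group in 16 of 21 sterol and 9 of 14 fatty acid members. Vehicle day 7 mouse 4 was so in 11 of 21 and 8 of 14, and LPC day 7 mouse 1 in 15 of 21 sterol members. Markers of other tissues also differed between libraries. Summed over 20 skeletal muscle markers (highest in mean FPKM, Acta1 and Tnnc2), levels at day 4 ran from 4221 to 43752 CPM with vehicle and from 323 to 4030 with LPC, and at day 7 from 2934 to 13817 with vehicle and from 441 to 24304 with LPC. Summed over 15 adipocyte markers (highest in mean FPKM, Fabp4 and Cfd), they ran from 1054 to 3200, 443 to 1090, 450.2 to 1441 and 335 to 5420 CPM in the same order. Sebaceous gland markers (13 genes; highest in mean FPKM, Krt79 and Fa2h) ran from 2165 to 6414, 1998 to 5361, 1558 to 4815 and 1122 to 1932 CPM. Differentiated keratinocyte markers (12 genes; highest in mean FPKM, Krtdap and Krt10) ran from 10343 to 25929, 15691 to 29244, 25789 to 34300 and 6500 to 11270 CPM. Summed over 10 neutrophil markers, vehicle day 7 mouse 4 had 216 CPM, against 3393 to 4911 CPM in the other mice of its group. Vehicle day 4 mouse 3 had 86.4 CPM, against 980 to 2480 CPM in the other mice of its group. None of these markers was at 0 in a whole group, so skin keratinocytes were present in every group as labelled. Fewer cells of a type and less RNA per cell cannot be told apart in such whole-tissue RNA.

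Per transcript length, the sterol arm was the more abundant. The median of its 21 mean FPKM levels over 16 libraries was 51.2, against 27.4 for the fatty acid arm and 8.40 for all 15782 genes tested. The highest sterol levels were those of Fdps (235 FPKM), which makes farnesyl diphosphate, Msmo1 (173), a sterol methyl oxidase, and Hmgcs1 (137), which makes HMG-CoA, and the lowest was that of Stard4 (10.2), a cholesterol carrier. Fdps shares 26.7% of its exon bases with Gm43738 on the same strand, so its level is less certain. In the fatty acid arm, Dgat1 (70.5 FPKM) and Dgat2 (67.7), which add the last acyl chain of triglyceride, led, followed by Me1 (60.6), which supplies NADPH. Fads2 (3.40 FPKM), a fatty acid desaturase, was lowest. The members differed widely in how much they varied between mice: the ratio of the highest to the lowest CPM over 16 libraries was 19.8 for Acacb, 7.38 for Fads2 and 6.64 for Fasn, but 1.87 for Ebp and for Elovl5.

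**Figure D1:**
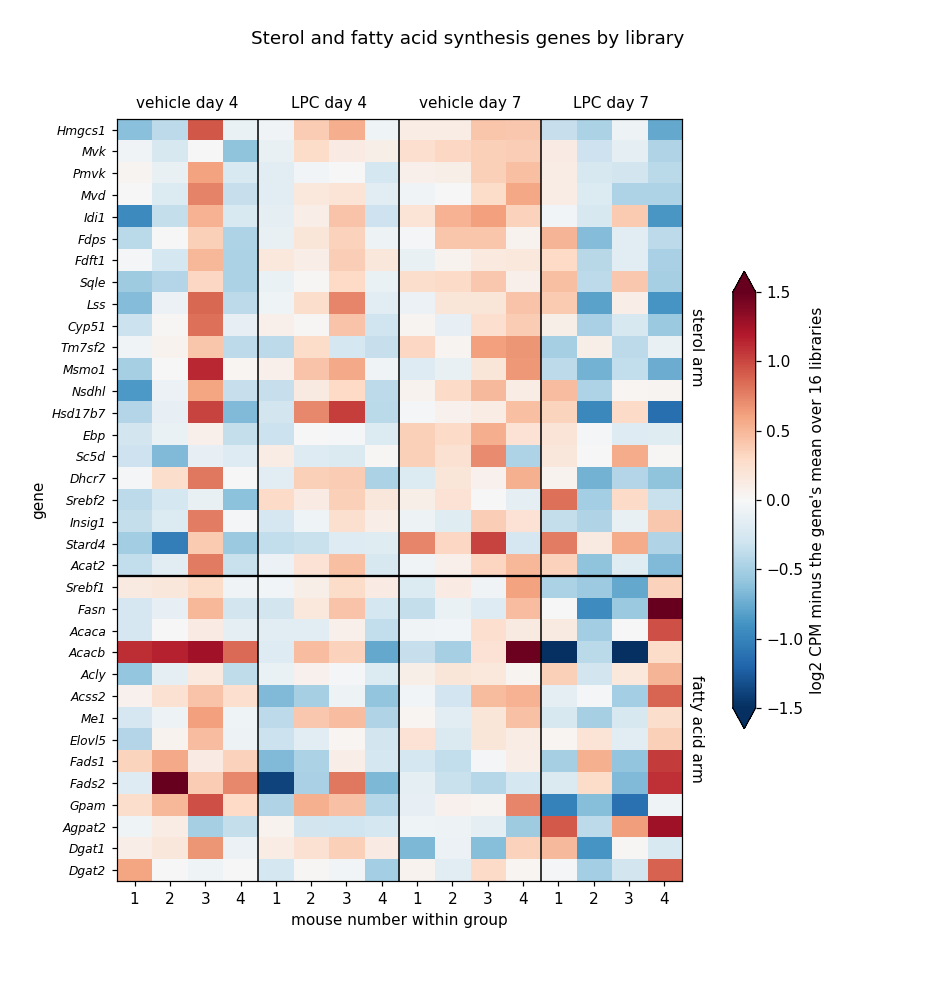
Level of each of the 35 genes in each of the 16 libraries, as log2 CPM minus the gene's mean over all libraries; columns are mice within the 4 groups and rows are genes, with the sterol arm above the fatty acid arm. Vehicle day 4 mouse 3 is the highest of its group for 21 of 21 sterol genes, and LPC day 7 mouse 4 for 13 of 14 fatty acid genes.

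Comparisons were made with edgeR's quasi-likelihood test on rounded counts, and a gene was called at a Benjamini-Hochberg adjusted p below 0.05 over all 15782 genes tested. All 35 members passed the filter on low counts. Values for single mice are CPM, and changes are log2 fold changes ± SE.

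LPC against vehicle at day 4 asks what LPC does early in the IMQ course. No member was called in that comparison, in which 22 genes (0.139%) were called. Sterol genes lay on both sides of no change, 14 higher and 7 lower, with a median log2 fold change of 0.06 and a range of -0.23 to 0.57. Of the fatty acid genes 12 of 14 were below 0, with a median of -0.15 and a range of -1.06 to 0.15; 49.7% of all genes were below 0, and the median of all was 0.00. At an unadjusted p below 0.05 (19.2% of all genes) there were 3 members, Srebf2 higher and Acss2 and Fads1 lower. For 19 of 21 sterol genes and 8 of 14 fatty acid genes the 95% interval lay within a 2-fold change in either direction. Limma-voom with sample weights called 1 member (Srebf2) and 10.2% of all genes, and DESeq2 called 0 members and 7% of all genes. A fit of only the 8 libraries compared called 4 members (Srebf2 higher; Acacb, Acss2 and Fads1 lower) and 8.67% of all genes. The difference between the arm medians was 0.21, and became 0.45 without vehicle day 4 mouse 3. With the skeletal muscle score as a covariate it was -0.43, with 18 of 21 sterol and 7 of 14 fatty acid genes below 0 and medians of -0.44 and -0.02. With the adipocyte score it was -0.06, with 18 of 21 and 8 of 14 below 0 and medians of -0.13 and -0.08. Neither covariate fit called any gene. Both scores were lower with LPC at day 4. Group means were 9.17 with vehicle and 4.58 with LPC for muscle, and 5.98 and 3.95 for adipocytes. At day 4, for arms and single genes alike, these fits therefore cannot fully separate the scores from LPC.

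LPC against vehicle at day 7 asks the same late in the course. In the sterol arm 20 of 21 genes lay below 0 (47.9% of all genes did), with a median log2 fold change of -0.40 against 0.02 for all genes, yet no member of either arm was called, while 604 genes (3.83%) were. The exception was Srebf2. An unadjusted p below 0.05, which 8.47% of all genes reached on the lower side, was reached by 7 sterol genes: Mvk, Ebp, Tm7sf2, Pmvk, Msmo1, Hmgcs1 and Dhcr7. The groups did not overlap for 4 of them (Mvk, Ebp, Hmgcs1 and Msmo1), all lower with LPC, against 5.16% of all genes on that side. The fatty acid arm had 9 genes above and 5 below 0, a median of 0.08, and 2 members at an unadjusted p below 0.05 (19.7% of all genes in either direction), Agpat2 higher and Gpam lower. The count depended on single libraries: without LPC day 7 mouse 4, 2 members (Gpam and Srebf1, both lower) and 4.38% of all genes were called, and without LPC day 7 mouse 2, 1 member (Agpat2, higher) and 4.32% of all genes. DESeq2 called 2 members (Mvk and Agpat2) and 9.18% of all genes. With the skeletal muscle score as a covariate 7.41% of all genes and 7 members were called, 6 sterol genes lower (Mvk, Ebp, Dhcr7, Hsd17b7, Hmgcs1 and Idi1) and Agpat2 higher. Summed markers of differentiated keratinocytes (7 of 12 called lower) and of the sebaceous gland (1 of 13 called lower) were also lower with LPC at day 7, and their part in the sterol values was not tested.

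The arms had medians on either side of 0 at day 7, -0.40 and 0.08, a difference of -0.48. That difference was -0.09 without LPC day 7 mouse 4, in which the fatty acid median became -0.25 and the sterol median -0.34. The side of the sterol median did not depend on that mouse, whereas the side of the fatty acid median did.

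**Figure D2:**
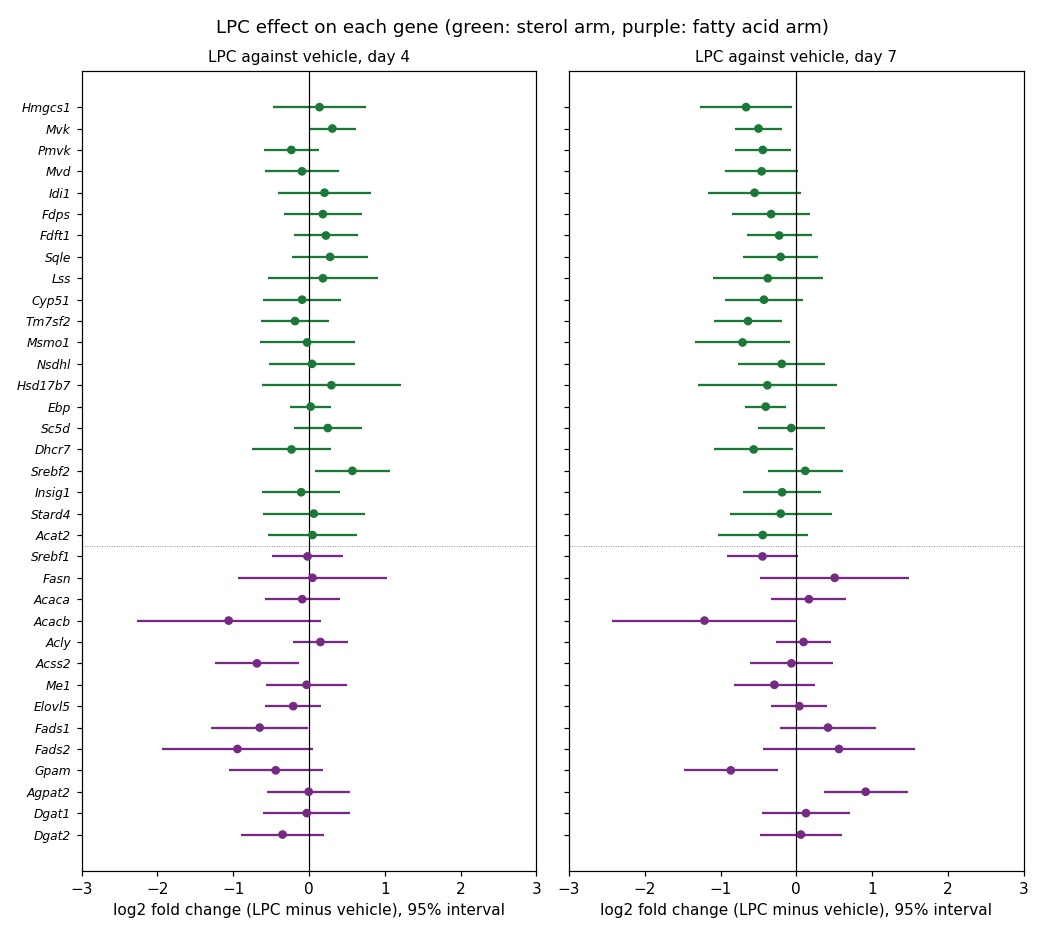
Log2 fold change of LPC over vehicle with its 95% interval for each of the 35 genes, at day 4 (left) and day 7 (right), with sterol genes in green and fatty acid genes in purple. At day 7, 20 of 21 sterol genes lie left of 0; no gene was called at either day.

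Day 7 against day 4 in vehicle-injected skin describes the IMQ course without LPC. In this comparison 0 of 15782 genes (0%) were called by edgeR, and no member was, although 13% of all genes had an unadjusted p below 0.05. Of the sterol genes 17 of 21 were higher at day 7, with a median of 0.18, and 5 had an unadjusted p below 0.05 (Ebp, Mvk, Sc5d, Stard4 and Sqle, all higher). In the fatty acid arm 9 of 14 were lower, with a median of -0.03, and Fads2 alone had an unadjusted p below 0.05. Of all genes 49.6% were lower. DESeq2 called 1 member (Ebp, higher) and 1.41% of all genes. Limma-voom with sample weights called 7 members (Ebp, Mvk, Sc5d, Stard4, Sqle and Acly higher, Dgat1 lower) and 13.2% of all genes. The difference of the arm medians was 0.21, and 0.58 without vehicle day 4 mouse 3. With the skeletal muscle score as a covariate the sterol and fatty acid medians were 0.069 and 0.028, and with the adipocyte score 0.068 and 0.075. Both scores were lower at day 7 in vehicle: group means went from 9.17 to 7.64 for muscle and from 5.98 to 4.81 for adipocytes. These fits therefore cannot fully separate the scores from the day.

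Day 7 against day 4 in LPC-injected skin describes the same course with LPC. Here 1736 genes (11%) were called, and 1 member was: Agpat2, higher at day 7, as were 6.87% of all genes. Sterol genes were below 0 in 16 of 21 cases (47.3% of all genes), with a median of -0.20, and fatty acid genes above 0 in 9 of 14, with a median of 0.30. Msmo1 and Hmgcs1 reached an unadjusted p below 0.05 on the lower side and did not overlap between the days (8.22% of all genes did not, on that side). Acss2 reached it on the higher side and Gpam on the lower, a threshold that 30.8% of all genes passed in either direction. The difference of the arm medians, -0.51, was -0.17 without LPC day 7 mouse 4. Of the markers, 5 of 13 sebaceous and 4 of 12 differentiated keratinocyte genes were called lower and 2 of 15 adipocyte genes higher. With the skeletal muscle score as a covariate 12 of 21 sterol genes were below 0, with arm medians of -0.05 (sterol) and 0.15 (fatty acid). With the adipocyte score 16 of 21 were, with medians of -0.14 and 0.16. Beyond these fits the part of the marker tissues in these values was not tested.

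Whether LPC acted differently at the 2 times was tested as an interaction. It called 0 of 15782 genes (0%) and no member. An unadjusted p below 0.05 was reached by 16.9% of all genes and by 5 members, Mvk and Ebp on the lower side and Fads1, Fads2 and Agpat2 on the higher. All 21 sterol genes had a smaller or more negative LPC effect at day 7 than at day 4, with a median interaction of -0.45 and a range of -0.81 to -0.08 (49.9% of all genes were below 0); the 14 fatty acid genes had 9 above and 5 below 0 and a median of 0.25. These values share their libraries with the comparisons above and are not independent of them. DESeq2 called 1 member (Mvk) and 3.71% of all genes. When vehicle day 4 mouse 3 was left out, edgeR called 1 member (Hmgcs1, log2 value -1.24) and 1.35% of all genes. The sterol count was 15 of 21 with the skeletal muscle score as a covariate, and 20 of 21 without vehicle day 4 mouse 1 or 2, vehicle day 7 mouse 3 or LPC day 7 mouse 2.

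The first enzymes of the sterol arm make mevalonate and its phosphates. Hmgcs1 (chr13:119690351-119708260, GRCm38) condenses acetyl-CoA units to HMG-CoA, and shares 12.1% of its exon bases with Gm48342 on the other strand. Its CPM in mice 1 to 4 was 294, 346, 870.3 and 424 in vehicle day 4, 439.6, 590.2, 665 and 436 in LPC day 4, 491, 491, 607 and 602 in vehicle day 7, and 359, 327, 432 and 267 in LPC day 7. The 4 LPC mice of day 7 lay below all vehicle mice of that day, whereas at day 4 a single vehicle mouse exceeded every other library. The log2 fold change with LPC was -0.66 ± 0.29 at day 7 (edgeR, adjusted p = 0.212), and the change from day 4 to day 7 with LPC was -0.62 ± 0.29 (edgeR, adjusted p = 0.155).

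Mvk (chr5:114444264-114460591), mevalonate kinase, had the smallest p-value of the sterol arm. Its CPM was 83.5, 73.3, 87.6 and 57.3 in vehicle day 4, 80.5, 106, 94.8 and 92.7 in LPC day 4, 103, 108, 111 and 112 in vehicle day 7, and 94.7, 70.3, 78.8 and 63.6 in LPC day 7. The day 7 vehicle mice were nearly alike, and every LPC mouse of that day was below them. LPC day 7 mouse 1 came closest. LPC at day 7 gave a log2 fold change of -0.50 ± 0.15 (95% interval -0.81 to -0.19; edgeR, adjusted p = 0.0687) and 0.31 ± 0.15 at day 4 (adjusted p = 0.264; 0.0055 with the skeletal muscle score as a covariate). The difference between the days was -0.81 ± 0.21 (adjusted p = 0.155), and from day 4 to day 7 in vehicle the Mvk value was 0.53 ± 0.15 (adjusted p = 0.208). Over 20 analyses of the day 7 comparison its log2 fold change lay between -0.62 and -0.42 and was called in 5.

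Pmvk, which adds the next phosphate, had a day 7 value of -0.44 ± 0.17 (edgeR, adjusted p = 0.162) and, at day 4, -0.23 ± 0.17 (adjusted p = 0.476). At day 7 its CPM was 91.8, 92.9, 112 and 119 with vehicle and 94.3, 73.7, 72.0 and 66.0 with LPC, so that only LPC mouse 1 lay among the vehicle mice. Acat2, Mvd, Idi1 and Fdps, which make acetoacetyl-CoA and the isoprenoid units, showed no unadjusted p below 0.05 in any comparison. Idi1 shares 9.2% of its exon bases with Gm48574 on the other strand.

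Squalene is made by Fdft1, oxidised by Sqle and closed to lanosterol by Lss. None of these 3 genes was called, and Sqle alone reached an unadjusted p below 0.05, from day 4 to day 7 in vehicle. Fdft1 shares 18.3% of its exon bases with Ctsb on the other strand, and the sources used here do not give the strand setting of the counting.

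The later enzymes trim and rearrange the sterol rings. Msmo1, which oxidises the methyl groups of lanosterol products, had CPM of 207, 289, 639.6 and 297 in vehicle day 4, 308, 391, 430.2 and 280.1 in LPC day 4, 254, 269, 330.4 and 457 in vehicle day 7, and 222, 179, 226 and 175 in LPC day 7. The LPC day 7 mice lay below all mice of LPC day 4 and of vehicle day 7. LPC at day 7 gave a log2 value of -0.71 ± 0.30 (edgeR, adjusted p = 0.194) and -0.81 ± 0.30 from day 4 to day 7 with LPC (adjusted p = 0.0828).

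Ebp (chrX:8185329-8193512), a sterol isomerase, had CPM of 53.7, 60.8, 68.4 and 50.5 in vehicle day 4, 52.0, 64.8, 64.0 and 56.2 in LPC day 4, 83.4, 79.0, 94.5 and 75.5 in vehicle day 7, and 73.9, 63.5, 56.9 and 57.1 in LPC day 7. The vehicle day 7 mice were above those of the other groups, LPC day 7 mouse 1 being just below the lowest of them. For LPC at day 7 the log2 fold change was -0.40 ± 0.13 (with edgeR, adjusted p = 0.0905), 0.51 ± 0.13 from day 4 to day 7 in vehicle (adjusted p = 0.191) and -0.43 ± 0.18 for the difference between days (adjusted p = 0.255).

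Tm7sf2, a sterol reductase, had CPM of 24.1, 19.9, 29.6 and 30.7 in vehicle day 7 and 13.8, 20.6, 14.8 and 17.9 in LPC day 7. LPC mouse 2 exceeded vehicle mouse 2, the others did not overlap, which gave a log2 fold change of -0.64 ± 0.21 (edgeR, adjusted p = 0.107). Tm7sf2 shares 12.1% of its exon bases with Vps51 on the same strand. Sc5d, a sterol desaturase, had a log2 change of 0.58 ± 0.21 from day 4 to day 7 in vehicle (adjusted p = 0.282), with CPM of 33.5, 26.2, 38.0 and 36.2 at day 4 and 53.1, 48.6, 67.9 and 30.0 at day 7. Only vehicle day 7 mouse 4 lay within the day 4 values. Dhcr7, the reductase of the last step, was at -0.56 ± 0.24 for LPC at day 7 (adjusted p = 0.212), while Cyp51, Nsdhl and Hsd17b7 had no unadjusted p below 0.05.

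Srebf2 and Insig1 are the regulators in the sterol arm. Srebf2 had CPM of 227, 248, 277 and 194 in vehicle day 4, 363.5, 325, 383 and 336 in LPC day 4, 317, 346, 296 and 272 in vehicle day 7, and 528, 209, 362 and 236 in LPC day 7. At day 4 every LPC mouse was above every vehicle mouse (7.42% of all genes did not overlap on that side), and at day 7 the LPC mice lay on both sides of the vehicle mice. LPC at day 4 gave a log2 fold change of 0.57 ± 0.23 (95% interval 0.08 to 1.07; edgeR, adjusted p = 0.192), and 0.12 ± 0.23 at day 7 (adjusted p = 0.836). The day 4 value was 0.055 with the skeletal muscle score as a covariate and 0.24 with the adipocyte score. The Srebf2 value was 0.38 ± 0.23 from day 4 to day 7 in vehicle (adjusted p = 0.512), -0.08 ± 0.23 with LPC (adjusted p = 0.852) and -0.46 ± 0.33 for the difference between days (adjusted p = 0.489). The transcript level does not measure how much SREBP-2 was cut to its active form.

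Insig1, which is itself a target of the SREBP factors, had CPM of 64.0, 70.8, 139.6 and 81.2 in vehicle day 4, 69.0, 78.1, 96.7 and 87.6 in LPC day 4, 77.5, 72.1, 106 and 95.1 in vehicle day 7, and 63.9, 59.9, 75.7 and 108 in LPC day 7. The groups overlapped in every comparison. Its log2 values were -0.10 ± 0.24 for LPC at day 4, -0.19 ± 0.24 for LPC at day 7, -0.02 ± 0.24 and -0.11 ± 0.24 for the course in vehicle and LPC, and -0.09 ± 0.34 for the difference between days, with edgeR adjusted p from 0.741 to 0.982. LPC day 7 mouse 4, the lowest of its group for 12 of 21 sterol genes, was the highest for Insig1. Stard4 was at 0.85 ± 0.32 from day 4 to day 7 in vehicle (adjusted p = 0.289).

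**Figure D3:**
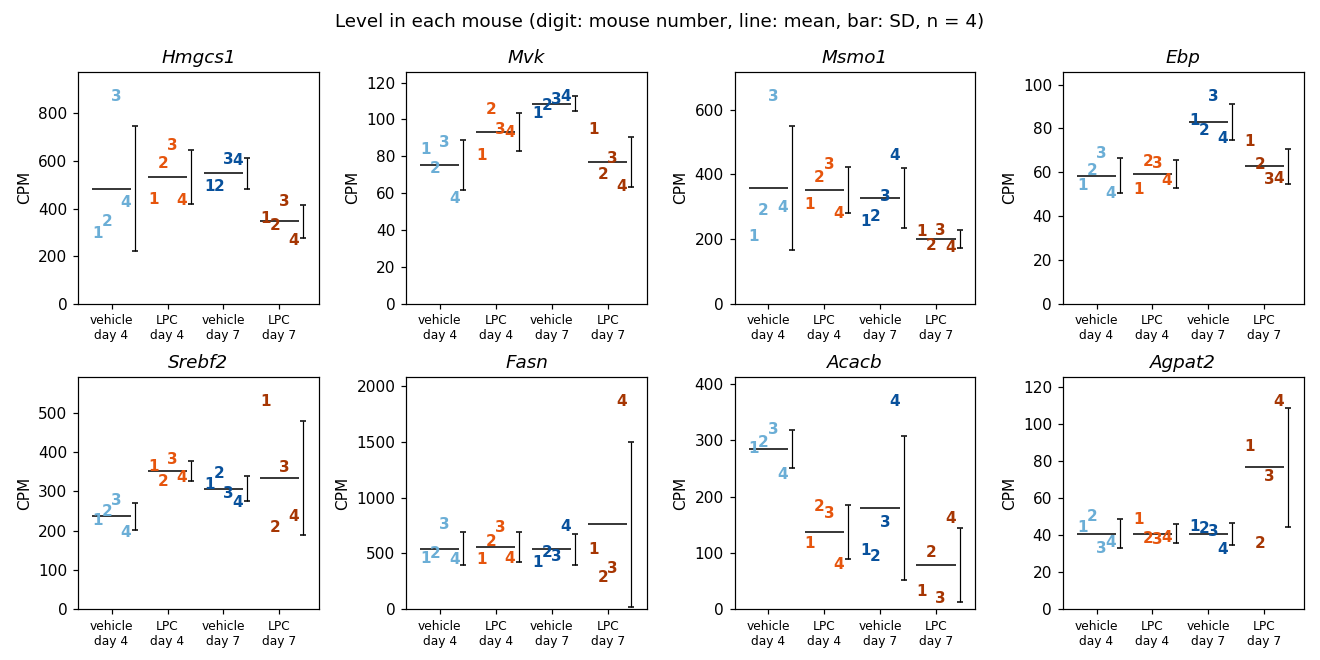
CPM of 8 members in each mouse, on linear axes from 0, with the group mean as a line and the SD as a bar (n = 4) and each mouse shown by its number. Mvk and Ebp are lower in all 4 LPC day 7 mice than in all 4 vehicle day 7 mice; Fasn reaches 1857 CPM in LPC day 7 mouse 4, and Agpat2 is near 40 CPM in the first 3 groups and lies between 35.2 and 112 in LPC day 7.

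In the fatty acid arm, the suppliers of acetyl-CoA and NADPH come first. Acss2, which activates acetate, had CPM of 43.5, 48.7, 56.0 and 49.4 in vehicle day 4, 26.3, 29.4, 39.5 and 27.6 in LPC day 4, 40.3, 34.2, 57.8 and 59.7 in vehicle day 7, and 37.8, 40.7, 29.2 and 76.0 in LPC day 7. At day 4 all LPC mice lay below all vehicle mice (8.67% of all genes did on that side), and at day 7 LPC mouse 4 was the highest of all 16. Its log2 fold change with LPC was -0.69 ± 0.26 at day 4 (edgeR, adjusted p = 0.169; -0.32 with the skeletal muscle score as a covariate), and from day 4 to day 7 with LPC it was 0.58 ± 0.26 (adjusted p = 0.145). Acss2 shares 3.89% of its exon bases with Gss on the other strand. Acly, which makes acetyl-CoA from citrate, was at 0.33 ± 0.17 from day 4 to day 7 in vehicle (adjusted p = 0.428), with 172, 235, 284 and 199 CPM at day 4 and 275, 292, 287 and 265 at day 7, where only vehicle day 4 mouse 3 reached the day 7 values. Me1 had no unadjusted p below 0.05.

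Acaca and Acacb are the acetyl-CoA carboxylases, the second of which sits at mitochondria and limits fatty acid oxidation, and Fasn is the synthase that assembles the chain. Acacb had CPM of 286, 295, 319 and 239 in vehicle day 4, 117, 183, 169 and 78.4 in LPC day 4, 104, 93.8, 155 and 368 in vehicle day 7, and 31.0, 101, 18.6 and 161 in LPC day 7. All vehicle day 4 mice were above all LPC day 4 mice, while at day 7 the groups overlapped. Its log2 fold change with LPC was -1.06 ± 0.57 at day 4 (edgeR, adjusted p = 0.325) and -1.21 ± 0.57 at day 7 (adjusted p = 0.257). Skeletal muscle markers were also lower in LPC day 4: their mean log2 CPM was 10.27, 9.84, 6.45 and 10.11 in vehicle day 4 and 6.80, 2.99, 3.59 and 4.95 in LPC day 4. Within vehicle day 4, mouse 3 had the highest Acacb level and the lowest muscle score. Within LPC day 4, mouse 1 had the highest muscle score, with less Acacb than mice 2 and 3. Within LPC day 7 the muscle score was 4.75, 9.06, 3.40 and 9.39, which ranks the mice in the same order as Acacb. Within vehicle day 7 the score was 7.85, 6.02, 8.75 and 7.93, highest in mouse 3, whereas Acacb was highest in mouse 4. With the muscle score as a covariate, the day 4 value of Acacb was 0.014. The muscle and adipocyte scores were both lower with LPC at day 4, so such a fit cannot fully separate them from LPC. Beyond such fits the part of these tissues in the Acacb values was not tested.

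Fasn had CPM of 454, 497, 759.6 and 447 in vehicle day 4, 446, 604, 728 and 451 in LPC day 4, 421, 504, 473 and 741 in vehicle day 7, and 537, 279.7, 368 and 1857 in LPC day 7. LPC day 7 mouse 4 was more than any other library, and the other LPC mice of that day overlapped the vehicle mice. The log2 fold change for LPC at day 7 was 0.51 ± 0.46 (edgeR, adjusted p = 0.607), and -0.44 without that mouse. In the same library the adipocyte markers had a mean log2 CPM of 7.84, against 2.36, 5.74 and 3.08 in LPC day 7 mice 1, 2 and 3. Over 20 analyses of the day 7 comparison, among them 1 with the adipocyte score as a covariate, the Fasn value lay between -0.44 and 0.78 and was called in 0. Beyond that fit the part of adipocytes in the Fasn value was not tested.

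The elongase Elovl5 and the desaturases Fads1 and Fads2 make long polyunsaturated chains. Fads1 had CPM of 38.0, 44.5, 32.8 and 38.2 in vehicle day 4 and 19, 21.6, 32.1 and 25.1 in LPC day 4, with no overlap. At day 7 it had 25.0, 23.2, 29.7 and 32.1 with vehicle and 21.2, 43.7, 19.9 and 62.1 with LPC, where mice 2 and 4 were above and mice 1 and 3 below all vehicle mice. The log2 fold change at day 4 was -0.65 ± 0.30 (edgeR, adjusted p = 0.254), which became 0.10 with the skeletal muscle score as a covariate, and the difference between days was 1.07 ± 0.42 (adjusted p = 0.224). Fads2, with 1.71 to 12.6 CPM in all 16 libraries, was at -0.94 ± 0.47 for LPC at day 4 (adjusted p = 0.289), -1.02 ± 0.47 from day 4 to day 7 in vehicle (adjusted p = 0.38) and 1.51 ± 0.66 for the difference between days (adjusted p = 0.269). Elovl5 had no unadjusted p below 0.05.

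Agpat2 (chr2:26593057-26604417, Entrez gene 67512), which makes phosphatidic acid from lysophosphatidic acid, was the member that was called. Its CPM was 44.2, 49.9, 32.7 and 36.2 in vehicle day 4, 48.2, 38.3, 37.6 and 38.5 in LPC day 4, 44.5, 43.8, 42 and 32.1 in vehicle day 7, and 87.7, 35.2, 71.5 and 112 in LPC day 7. LPC day 7 mice 1, 3 and 4 were above all 12 other libraries, and mouse 2 was at their level, so the groups overlapped. From day 4 to day 7 with LPC it rose by 0.91 ± 0.26 on the log2 scale, or 1.88-fold (95% interval 0.36 to 1.47; edgeR, adjusted p = 0.0382). The LPC effect at day 7 was 0.92 ± 0.26 (95% interval 0.36 to 1.47; edgeR, adjusted p = 0.0625), and the difference between days 0.92 ± 0.37 (adjusted p = 0.226).

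The call was lost in 12 of 19 alternatives, 6 of them with a single library left out: the edgeR adjusted p was 0.0571, 0.0983, 0.0992 and 0.0724 without LPC day 4 mouse 1, 2, 3 or 4, and 0.0628 and 0.107 without LPC day 7 mouse 1 or 4. It was 0.0105 and 0.0426 without LPC day 7 mouse 2 or 3. Without LPC day 7 mouse 4, Srebf1 was called in its place (lower, -0.71). Agpat2 shares 3.0% of its exon bases with Egfl7 on the other strand.

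Gpam, which adds the first acyl chain to glycerol 3-phosphate, lay on the other side. At day 7 its CPM was 99.5, 113, 111 and 180.1 with vehicle and 53.5, 69.7, 49.9 and 104 with LPC, where LPC mouse 4 alone exceeded a vehicle mouse. With LPC at day 7 its log2 fold change was -0.86 ± 0.29 (edgeR, adjusted p = 0.112; called at -1.12 without LPC day 7 mouse 4) and -0.74 ± 0.29 from day 4 to day 7 with LPC (adjusted p = 0.103). Dgat1 and Dgat2 had no unadjusted p below 0.05 in any comparison. The nearest was Dgat1 from day 4 to day 7 in vehicle, at -0.44 ± 0.27 (adjusted p = 0.519).

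Srebf1 had CPM of 229.5, 235, 253 and 201 in vehicle day 4, 203, 223, 253 and 228 in LPC day 4, 181, 228, 201 and 319 in vehicle day 7, and 150.2, 144, 123 and 265 in LPC day 7. LPC day 7 mice 1, 2 and 3 were below all other libraries, and mouse 4 was above all but 1. LPC gave a log2 fold change of -0.02 ± 0.22 at day 4 (edgeR, adjusted p = 0.971), -0.45 ± 0.22 at day 7 (adjusted p = 0.281; called at -0.74 without LPC day 7 mouse 4), 0.02 ± 0.22 from day 4 to day 7 in vehicle (adjusted p = 0.985) and -0.41 ± 0.22 with LPC (adjusted p = 0.218). The difference between days was -0.43 ± 0.31 (adjusted p = 0.497).

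Set against each other within each library, the arms kept a similar distance in 2 of the groups. The mean log2 CPM of the sterol arm minus that of the fatty acid arm was 0.59, 0.53, 0.46 and 0.56 in LPC day 4 and 0.60, 0.67, 0.72 and 0.35 in vehicle day 7. In vehicle day 4 it was -0.03, -0.13, 0.53 and -0.03, and in LPC day 7 0.74, 0.30, 0.84 and -0.75. At day 4 the group mean ± SD (n = 4) was 0.09 ± 0.30 with vehicle and 0.54 ± 0.06 with LPC, and at day 7 it was 0.58 ± 0.17 and 0.28 ± 0.73. The spread in LPC day 7 thus exceeded the differences between the group means, and 1 mouse in each of vehicle day 4 and LPC day 7 stood apart from its group.

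Within LPC day 7 the sterol arm had mean log2 CPM of 7.05, 6.48, 6.85 and 6.42, and mice 1 and 3 were above mice 2 and 4 for 15 of 21 sterol genes. The skeletal muscle score there was 4.75, 9.06, 3.40 and 9.39, low where the sterol mean was high. In vehicle day 4, mouse 3 had the highest sterol mean (7.42, against 6.52 to 6.67) with the lowest muscle score (6.45) and neutrophil score (1.63) and the highest sebaceous score (7.62). In vehicle day 7 mouse 3 was instead the highest in both, with a sterol mean of 7.25 and a muscle score of 8.75. The part of these tissues in the differences was not tested beyond the covariate fits given here.

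**Figure D4:**
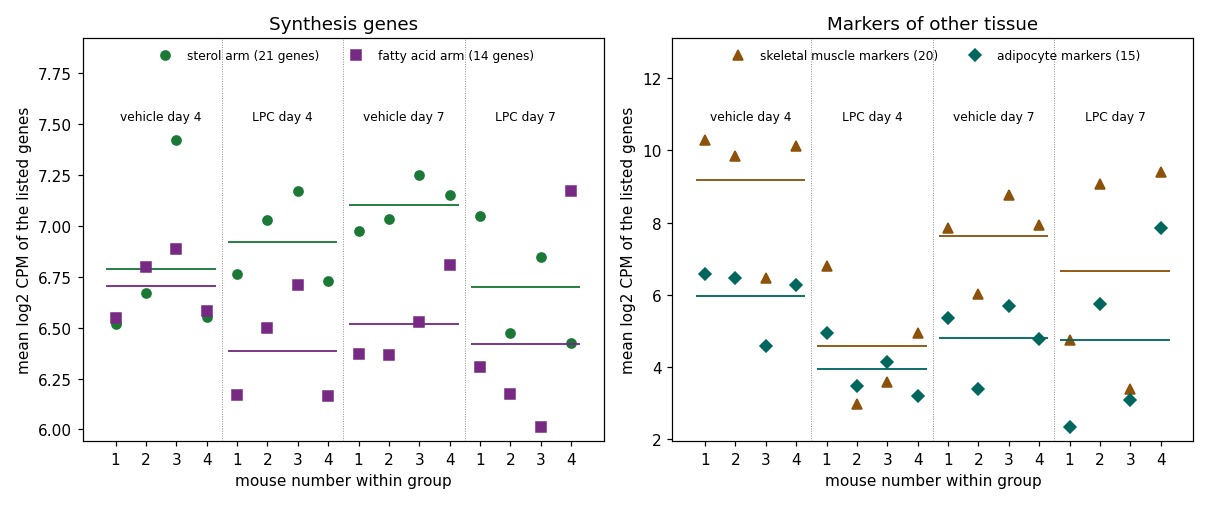
Mean log2 CPM of the 21 sterol and 14 fatty acid genes (left) and of 20 skeletal muscle and 15 adipocyte markers (right) in each library; points are mice and lines are group means. The sterol mean is high and the muscle mean low in vehicle day 4 mouse 3, and in LPC day 7 mouse 4 the fatty acid mean (7.17) exceeds the sterol mean (6.42).

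A list of 31 further genes of these pathways, among them desaturases, elongases and SREBP processing factors, was read beside the members. It had 0 genes called for LPC at day 4 (0.139% of all genes were) and 1, lower, at day 7 (3.83% of all genes in either direction). The medians were -0.16 and -0.20. From day 4 to day 7 none was called in vehicle (0% of all genes), and with LPC 2 were higher and 3 lower (11% of all genes in either direction). Elovl6, which elongates palmitate, was at 329, 386, 468 and 1106 CPM in vehicle day 7 and 129, 190.3, 95.3 and 189.9 in LPC day 7. Every LPC mouse lay below every vehicle mouse, as for 5.16% of all genes. Elovl6 fell with LPC at day 7 by 1.92 ± 0.46 on the log2 scale (edgeR, adjusted p = 0.0341) and from day 4 to day 7 with LPC by 1.51 ± 0.45 (adjusted p = 0.0452).

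From day 4 to day 7 with LPC, Scd2, a stearoyl-CoA desaturase, rose by 1.21 ± 0.26 (edgeR, adjusted p = 0.0146), from 202, 176, 221 and 204 CPM to 507, 483, 495 and 369.8. Elovl3, an elongase of sebum lipids that is also among the sebaceous markers, fell by 1.68 ± 0.42 (adjusted p = 0.0241), from 394, 616, 688 and 251 CPM to 223, 140.4, 107 and 137. For both genes the days did not overlap. On the lower side, that of Elovl3, 8.22% of all genes did not, and the share on the higher side, that of Scd2, was not counted. Scd2 and Elovl3 were named because they were called in this comparison, so the lack of overlap is not separate evidence. Thrsp, a lipogenic regulator, had a log2 change of 5.93 ± 1.74 (adjusted p = 0.0422), but its CPM at day 7 was 0.12, 8.98, 0.217 and 143 against 0.254 to 1.23 at day 4. Mice 2 and 4 lay above the day 4 mice. Mice 1 and 3 were near the limit given above for a count of 0, so they cannot be placed below the day 4 mice. Tecr, a reductase of the elongation cycle, fell by 0.85 ± 0.26 (adjusted p = 0.045).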

How the data were processed

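Ear skin of 16 mice, 4 per group, was profiled by RNA-seq. Groups and mouse numbers came from the sample titles, since the days in the deposited files' names differ from those in the titles. Per the labels' protocols, RNA was sequenced on a BGISEQ-500, reads were aligned to GRCm38 with Bowtie2 and genes were quantified with RSEM by the authors; the sources used here give neither versions nor the strand setting. The authors deposited, per gene, an RSEM expected count (a model divides reads that match more than 1 gene) and an FPKM value. A gene missing from a library was taken as 0. Libraries held 18704197 to 20131513 expected counts.

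Expected counts were rounded, scaled by TMM and filtered with filterByExpr in edgeR 4.0.16 (R 4.3.3), leaving 15782 genes and removing 3657. A single quasi-likelihood fit of all 16 libraries had 1 mean per group (12 residual degrees of freedom, biological coefficient of variation 35%). Tests were two-sided, with Benjamini-Hochberg adjustment over all genes. CPM uses TMM-scaled totals, and log2 CPM a prior count of 2. Arm and marker values are means of log2 CPM, with no test. Each library came from a separate mouse, and same-numbered mice in different groups did not deviate together, so the numbers were not used as pairs. RefSeq promoter windows and GENCODE M21 exons gave sequences and overlaps. The test was checked on simulated counts.

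The members and lists were chosen with earlier results of these data known. Full values were given for members called, the 3 members of each arm with the smallest p per comparison, and Srebf1, Srebf2 and Insig1. Of the 31 other pathway genes, up to 4 called per comparison were named, and Elovl6 also in a further comparison. Alternatives were median-of-ratios size factors, other low-count filters, DESeq2 1.42.0, limma 3.58.1 (voom with sample weights, and log2 FPKM with a pseudocount of 0.1 or 1), marker scores as covariates, a replicate block, only the 8 libraries compared, and leaving out each library. Hair follicle (11 markers tested), basal keratinocyte (10), macrophage (10) and neutrophil (8) lists were also read: for LPC at day 4 none of these genes was called, and at day 7 1 neutrophil gene was called higher; from day 4 to day 7 with LPC 4 macrophage genes were called higher, 2 neutrophil genes higher and 1 lower, and 1 basal keratinocyte gene lower. Floors cover counting error only.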

Additional observations from a re-analysis of the deposited data

Results flagged for a closer look

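In 9 of 140 sets of a member and a group, 1 mouse lay far from the other 3 by Dixon's criterion, which chance meets in about 1 in 20 groups. Vehicle day 4 mouse 3 held 4 of these: Sqle at 219 CPM (others 121 to 130), Acat2 at 281 (126 to 146), Fasn at 759.6 (447 to 497) and Me1 at 284 (155 to 177). The same mouse stood apart in the sterol arm's mean log2 CPM, 7.42 against 6.52 to 6.67, and in sterol minus fatty acid arm, 0.53 against -0.13 to -0.03. Fasn was at 1857 CPM in LPC day 7 mouse 4 (others 279.7 to 537). Agpat2 was at 48.2 in LPC day 4 mouse 1 (37.6 to 38.5), and Tm7sf2 at 23.6 in LPC day 4 mouse 2 (14.8 to 16.2). Gpam was at 180.1 in vehicle day 7 mouse 4 (99.5 to 113), and Dgat2 at 225 in vehicle day 4 mouse 1 (142 to 149).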

How the results depend on the processing

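Of 3570 member results under alternative settings, 3512 kept their side of the threshold and either kept direction or changed sign within 1 SE (221 of them), 35 gained a call, 12 lost one and 11 reversed. Members called at day 4 numbered 0, but 1 with limma-voom and 4 with only the 8 libraries compared (which called 1606 and 1333 of all genes, against 22). Without vehicle day 4 mouse 3 the day 4 comparison called 683 of all genes and 0 members. For LPC at day 7, 0 were called, but 2 with DESeq2 (1448 of all genes, against 604), 2 at either FPKM pseudocount (522 and 530), 7 with the muscle score (1170), 1 with the adipocyte score (967) and 0 to 2 with a library left out. For the vehicle course, 0 were called, but 1 with DESeq2 (223 of all genes, against 0), 7 with limma-voom (2086) and 0 with any library left out. Without vehicle day 7 mouse 4 the vehicle course had 205 of all genes called. For the LPC course, 1 was called (Agpat2), but 2 with DESeq2 (3073 of all genes, against 1736), 1 other (Msmo1) with only the 8 libraries compared, 0 with limma-voom, at either FPKM pseudocount, with the muscle score and with the replicate block, and 0 to 1 with a library left out. The interaction called 0, but 1 with DESeq2 (585 of all genes, against 0) and 0 to 1 with a library left out. Same-numbered mice of different groups did not deviate together (24 pairs, correlations of deviations -0.596 to 0.539, 2 of 16 libraries closest to their own number). The replicate block changed member calls only in the LPC course, and over all genes it called 2, 351 and 901 for LPC at day 4, at day 7 and the LPC course, against 22, 604 and 1736.

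The difference of arm medians moved from 0.21 to -0.43 at day 4 and from -0.70 to -0.26 for the interaction with the muscle score. Reversed at day 4 with the muscle score were Acacb (0.014), Fdft1 (-0.16), Sqle (-0.34), Dgat2 (0.0082) and Fads1 (0.10), and with the adipocyte score Fdft1 (-0.0095) and Sqle (-0.049). In the interaction, Hsd17b7 (0.10) and Lss (0.011) reversed with the muscle score. Without LPC day 7 mouse 4, Fasn reversed for LPC at day 7 (range over libraries left out -0.44 to 0.78) and Dgat2 for the LPC course (-0.072 to 0.47). On the log2(FPKM + 0.1) scale the median of all genes at day 7 shifted to -0.12 and calls split 246 higher to 276 lower, against 376 to 228. The cause of these changes was not tested. With 4 mice per group, small changes in members that vary widely between mice could not be told from no change.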
